A study of Homo sapiens with 6 samples.

Results

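Purine synthesis and salvage were followed here through 10 enzyme genes that do not themselves take nitrogen from glutamine: PRPS1, PRPS2, GART, PAICS, ADSL, ATIC, IMPDH1, IMPDH2, ADSS (now named ADSS2) and HPRT1. They were chosen by symbol, with earlier results of these data known, and all 10 were found among the 24462 gene symbols counted. The series compared H460, a long-used human line from a large-cell lung carcinoma, grown without glutamine for 24 h (RPMI 1640 with 10% dialyzed fetal bovine serum, glutamine-depleted, 3 libraries) with glutamine-replete H460 (3 libraries), by 3′-end mRNA sequencing. The labels give fetal bovine serum for routine culture but not which serum replete cells had in those hours, so serum dialysis and glutamine withdrawal cannot be told apart. No label states that the 3 libraries of a condition are independent cultures. The p-values here therefore rest on library-to-library variation that may be purely technical.

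The de novo pathway builds the purine ring step by step on phosphoribosyl pyrophosphate (PRPP), an activated ribose phosphate, and ends at inosine monophosphate (IMP), from which separate branches lead to AMP and GMP. Ring nitrogens come from glutamine, glycine and aspartate, and glutamine enters at the steps of PPAT and PFAS and again in the GMP branch at GMPS. Salvage enzymes such as HPRT1 rebuild the nucleotides from free bases and PRPP. Dividing tumour cells use both routes to make RNA, DNA and energy carriers.

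The depleted libraries held 8667798 to 10914899 counts and the replete libraries 7550849 to 9028230. Depleted replicate 2 stood apart: a chi-square test of counts over genes gave 19.4 and 11.7 per degree of freedom against the other depleted libraries, and 1.51 to 3.92 for all other pairs within a group. Of the epithelial markers, KRT8, KRT18 and KRT19 were well counted, while EPCAM had 16 counts and CDH1 1 count over all libraries, and their 5-gene sum was 761 to 881 CPM (counts scaled to the same library total) in depleted and 2067 to 2092 CPM in replete libraries. Most of that gap is KRT19, with a mean of 326 CPM in depleted and 1399 CPM in replete libraries. The means were 393 and 478 CPM for KRT18, and 81.7 and 198 CPM for KRT8. Lung epithelium markers (NKX2-1, SFTPB, SFTPC, NAPSA) summed to 1.38 to 2.63 CPM in depleted and 0.265 to 0.884 CPM in replete libraries, and so lay near 0 in both groups. Of other cell types, the 4 fibroblast markers summed to 12.8 to 81.7 CPM in depleted and 8.09 to 19.3 CPM in replete libraries, with the highest value in depleted replicate 3. Over depleted replicates 1, 2 and 3, COL1A1 was at 7.51, 6.19 and 56.5 CPM and COL1A2 at 0.183, 0.344 and 18.2 CPM. DCN was at 0.275, 0.229 and 0.808 CPM, and PDGFRB at 6.78, 6.07 and 6.11 CPM. The 4 blood cell markers summed to 0.808 to 1.19 CPM in depleted and 2.10 to 4.04 CPM in replete libraries. The 3 endothelial markers stayed at or below 0.115 CPM in depleted and 0.126 CPM in replete libraries, with VWF and CDH5 at 0 throughout. The part of these markers in the enzyme results was not tested.

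Most of the purine enzyme transcripts fell without glutamine. In edgeR's quasi-likelihood test, 9 of the 10 passed an adjusted p of 0.05 and were lower in depleted cells, 0 were higher, and ATIC did not pass. None of the 10 was higher at an unadjusted p under 0.05 either, and neither DESeq2 nor limma-voom called any of them higher. The background is high: 78.6% of the 12739 genes tested were called, 39.4% as lower and 39.1% as higher. A fall of more than 2-fold was called for 7 of the 10 members, against 23.7% of all genes tested. The members' median log2 fold change was −1.36, where the median of all genes tested was −0.02. As the list was chosen with earlier results of these data known, the contrasts with all genes are descriptions and not a test of the set. Library levels below are normalised CPM, in which the library totals were first multiplied by edgeR's trimmed-mean (TMM) factors, and log2 fold changes are depleted over replete. These are shares of a library, so fewer cells of a kind and less RNA per cell cannot be told apart. The range of the 3 depleted libraries lay below that of the 3 replete libraries for the same 9 members, where 41.0% of all genes tested showed this and 80.9% had ranges apart in either direction.

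**Figure D1:**
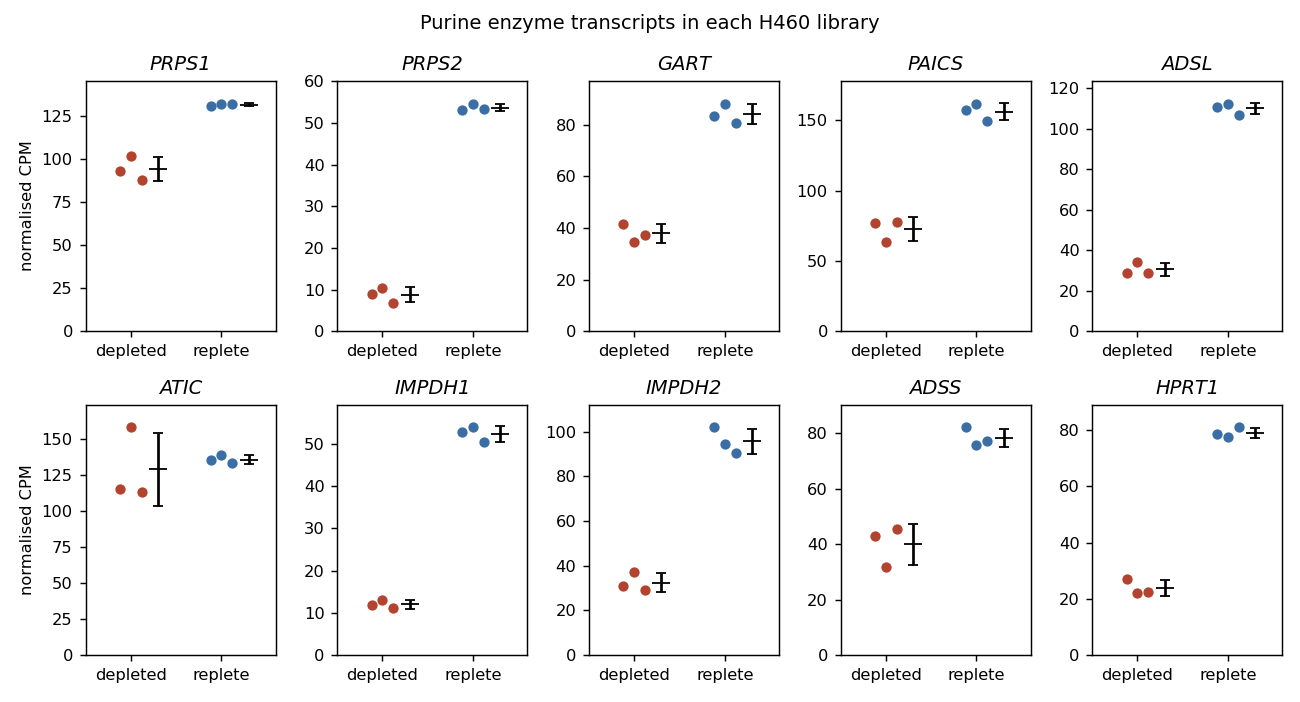
Normalised CPM (y axis, starting at 0) of each of the 10 purine enzyme genes in the 3 depleted (red, left) and 3 replete (blue, right) H460 libraries, with the mean and SD beside the points. The groups are apart for 9 genes, and for ATIC depleted replicate 2 lies above all replete libraries while the other depleted libraries lie below them.

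PRPS1 and PRPS2 are isoenzymes that make PRPP, the substrate of both de novo synthesis and salvage, and both genes are on the X chromosome. Both fell, and PRPS2 kept a far smaller share of its replete level than PRPS1. PRPS2 had 8.88, 10.5 and 6.84 normalised CPM in the depleted libraries, against 53.1, 54.6 and 53.5 in the replete libraries. This was the steepest fall of the 10, leaving 16.3% of the replete level (log2 fold change −2.62, SE 0.13, edgeR adjusted p = 1.38e-09), and 4.94% of all genes tested had a lower log2 fold change. PRPS1 had 93.3, 102 and 88.2 normalised CPM in the depleted libraries, against 131, 132 and 132 in the replete libraries. It fell by 0.48 on the log2 scale (SE 0.08, edgeR adjusted p = 9.73e-05), to 71.7% of the replete level, and did not pass when the test was set against a change of 1.5-fold (glmTreat adjusted p = 0.895, with 1.99e-09 to 0.895 over its alternatives). In that stricter test 8 members were lower, where 27.1% of all genes were.

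The shift between the isoenzymes was read from the ratio of their counts within each library, which does not depend on scaling between libraries. The count ratio of PRPS1 to PRPS2 was 10.5, 9.73 and 12.9 in the depleted libraries and 2.47, 2.42 and 2.47 in the replete libraries. On the log2 scale it averaged 3.45 ± 0.21 in depleted and 1.30 ± 0.02 in replete cells (SD, n = 3 each), a difference of 2.16. All 3 depleted ratios lay above all 3 replete ratios, and the two-sided exact permutation p was 0.1, the smallest that 3 against 3 libraries can give. A ratio of counts of 2 genes is not a ratio of molecules, so only its change between groups is read here.

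The promoters of this pair are shown because PRPS2 had the lowest fold change of the 10 and PRPS1 the highest of the 9 that fell. RefSeq windows of 300 bases (250 before to 50 after the annotated start, build GRCh38.p14, plus strand) cover chrX:107628260-107628559 for PRPS1 and chrX:12791162-12791461 for PRPS2. Capitals mark the CCAAT box (CCAAT, or ATTGG on the other strand) and the E-box CACGTG, which reads the same on both strands.
PRPS1: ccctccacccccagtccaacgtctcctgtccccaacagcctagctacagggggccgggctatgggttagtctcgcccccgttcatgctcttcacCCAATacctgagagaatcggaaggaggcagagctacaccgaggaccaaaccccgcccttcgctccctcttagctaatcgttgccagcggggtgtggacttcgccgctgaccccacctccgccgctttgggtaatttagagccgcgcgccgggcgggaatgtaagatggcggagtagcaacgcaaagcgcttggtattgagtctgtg
PRPS2: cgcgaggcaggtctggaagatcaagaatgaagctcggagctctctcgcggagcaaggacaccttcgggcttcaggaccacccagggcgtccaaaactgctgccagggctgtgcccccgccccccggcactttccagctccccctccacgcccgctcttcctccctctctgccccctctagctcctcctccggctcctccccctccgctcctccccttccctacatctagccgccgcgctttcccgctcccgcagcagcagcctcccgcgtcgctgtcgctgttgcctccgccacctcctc
The PRPS1 window holds 1 CCAAT box and the PRPS2 window none, and neither holds an E-box. Over all genes with such windows, 39.7% have a CCAAT box and 8.77% an E-box.

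GART, PAICS, ADSL and ATIC carry out the de novo steps other than those that take glutamine nitrogen, up to IMP. GART, a trifunctional enzyme that includes the formyltransferase drawing on folate, had 41.7, 34.7 and 37.2 normalised CPM in the depleted libraries and 83.5, 88.1 and 80.5 in the replete libraries. It fell by 1.15 on the log2 scale (SE 0.09, edgeR adjusted p = 1.33e-07). In the GENCODE 29 annotation some of its exons overlap those of SON on the other strand, but not within the last 1000 bases of the gene, where 3′-end reads are expected. PAICS, which carboxylates the growing ring and joins aspartate to it, had 77.1, 63.2 and 77.9 normalised CPM in the depleted libraries and 157, 162 and 149.6 in the replete libraries (log2 fold change −1.10, SE 0.09, edgeR adjusted p = 1.53e-07). GART and PAICS thus kept 45.2% and 46.6% of their replete levels, with groups that did not overlap.

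ADSL, which splits off fumarate and works both on the way to IMP and in the AMP branch, fell as well. It had 28.6, 34.1 and 28.99 normalised CPM in the depleted libraries, against 111, 112 and 107 in the replete libraries. Its log2 fold change was −1.85 (SE 0.09, edgeR adjusted p = 1.15e-09), leaving 27.8% of the replete level.

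ATIC, the bifunctional enzyme that closes the ring to IMP, was the exception. It had 116, 158 and 113 normalised CPM in the depleted libraries and 136, 139 and 133 in the replete libraries. Depleted replicate 2 was the highest of all 6 libraries and the other depleted libraries were the lowest, so the groups overlapped. The log2 fold change was −0.08 (95% interval −0.33 to 0.18, edgeR adjusted p = 0.557). Without depleted replicate 2 it was −0.24 (adjusted p = 0.00048, with 0.00048 to 1 over its alternatives), and then all 10 members were lower, where 41.3% of all genes were. The upper end of that range is from the test against a change of 1.5-fold. Without depleted replicate 1 the log2 fold change of ATIC was 0.0051 and without depleted replicate 3 it was 0.015, both on the other side of 0. ATIC also passed as lower when libraries were scaled by their totals alone (−0.30, adjusted p = 0.0255) or by upper quartile factors (−0.28, adjusted p = 0.0468). All 10 members were then lower, where 46.5% of all genes were with library totals and 46.0% with upper quartile factors.

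**Figure D2:**
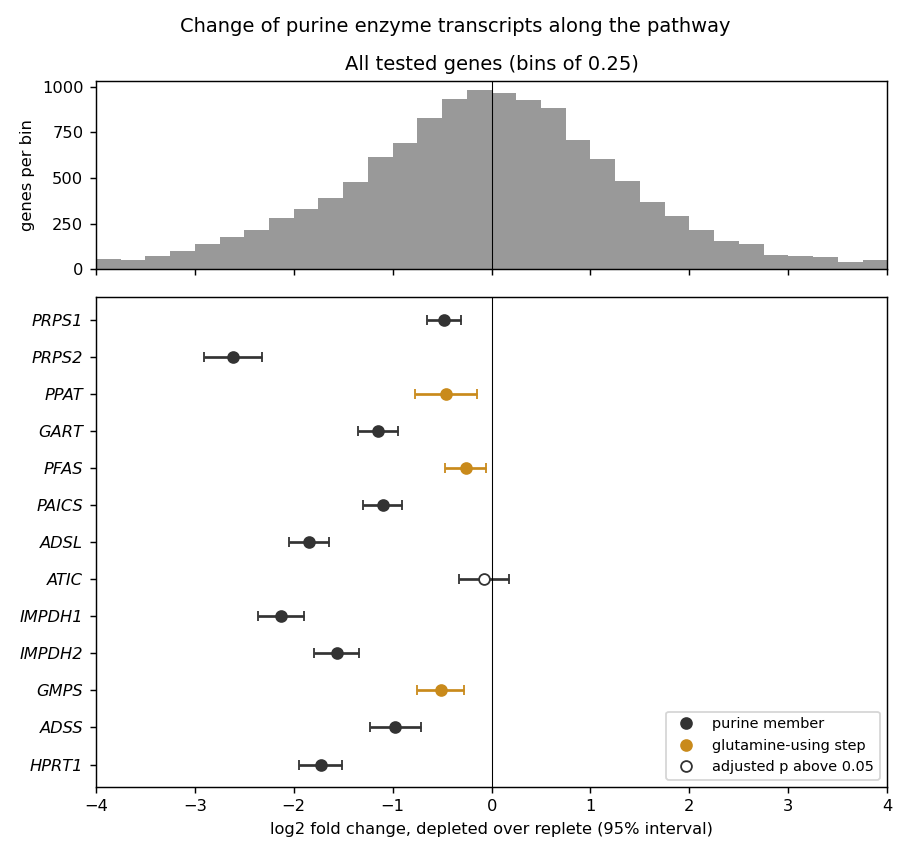
Upper panel, number of tested genes (y axis) by log2 fold change, depleted over replete, between −4 and 4 (332 genes lie outside). Lower panel, log2 fold change with its 95% interval for the 10 members (black) and the 3 glutamine-using steps (orange) in pathway order: 9 members lie between −2.62 and −0.48, and ATIC, with an open symbol, is at −0.08 with an interval that includes 0.

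The glutamine-using enzymes PPAT, PFAS and GMPS were lower as well. PPAT, which starts the pathway by placing the amide nitrogen of glutamine on PRPP, had 13.2, 14.9 and 17.9 normalised CPM in the depleted libraries and 19.5, 23.9 and 19.8 in the replete libraries. Its log2 fold change was −0.46 (SE 0.15, edgeR adjusted p = 0.0113), and without replete replicate 2 it was −0.38 and did not pass (adjusted p = 0.0598, with 0.00074 to 0.736 over its alternatives). The upper end, 0.736, is from the stricter test against a change of 1.5-fold. PFAS, which takes up glutamine nitrogen after the first GART steps, fell to 32.5 ± 1.78 normalised CPM in depleted cells, against 38.9 ± 1.22 in replete cells (log2 fold change −0.26, edgeR adjusted p = 0.0237, n = 3 each in this model across all genes). This call was lost on leaving out depleted replicate 1 (adjusted p = 0.0857) or 3 (0.0597), or replete replicate 2 (0.0531) or 3 (0.0703). It was also lost with DESeq2 (0.0927) and after adjusting for GC content and transcript length (−0.08, adjusted p = 0.382), with 0.000344 to 1 over its alternatives. The upper end of this range, too, is from the test against a change of 1.5-fold. GMPS, which adds the amide nitrogen that completes GMP, fell to 24.4 ± 1.40 normalised CPM in depleted cells, against 34.9 ± 3.20 in replete cells (log2 fold change −0.51, edgeR adjusted p = 0.000776). It, too, did not pass against a change of 1.5-fold (glmTreat adjusted p = 0.658, with 1.84e-05 to 0.658 over its alternatives). With library totals alone the log2 fold changes were −0.69 for PPAT, −0.49 for PFAS and −0.74 for GMPS. Whether these falls differ in size from those of the members was not tested.

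PPAT and PAICS form a head-to-head pair on chromosome 4, so they are shown with their common promoter. Of 3 RefSeq windows of PAICS, the one shown has its start 137 bases from that of PPAT, and 236 bases of their 300-base windows are shared. The other PAICS windows hold no E-box. The PAICS window below is chr4:56435502-56435801 on the plus strand, and the ATIC window, shown because ATIC was the member that did not pass, is chr2:215311809-215312108 on the plus strand (RefSeq, GRCh38.p14). Capitals again mark E-boxes and CCAAT boxes.
PAICS: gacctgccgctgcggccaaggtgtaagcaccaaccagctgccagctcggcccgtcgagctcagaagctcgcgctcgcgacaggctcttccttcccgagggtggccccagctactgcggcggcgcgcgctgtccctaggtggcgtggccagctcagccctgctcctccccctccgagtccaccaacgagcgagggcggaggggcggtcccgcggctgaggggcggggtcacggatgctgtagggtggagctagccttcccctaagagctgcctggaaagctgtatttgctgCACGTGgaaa
ATIC: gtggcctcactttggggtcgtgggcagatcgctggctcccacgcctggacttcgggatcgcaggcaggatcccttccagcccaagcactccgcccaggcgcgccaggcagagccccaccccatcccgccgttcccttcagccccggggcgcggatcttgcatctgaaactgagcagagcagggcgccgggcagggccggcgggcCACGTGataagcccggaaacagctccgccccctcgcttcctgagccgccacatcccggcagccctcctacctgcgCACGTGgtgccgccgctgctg
The PAICS window shown holds 1 E-box, which lies in the bases shared with PPAT and is the same site as the 1 E-box of the PPAT window. The ATIC window holds 2. PAICS and ATIC were the only 2 members with an E-box in any window among the 8 that have one (not ADSL and IMPDH2), where 8.77% of all genes have an E-box. The GC box GGGCGG was found on either strand for 8 of the 8 members (48.3% of all genes), the CCAAT box for PRPS1 and GART, and the element TGATGNAA, a core to which ATF4 can bind, for 0 (4.46% of all genes). GART, PAICS and ADSS have several windows each and so more chances of a match. Across this pair, the log2 fold change was −1.10 for PAICS (95% interval −1.30 to −0.90) and −0.46 for PPAT (−0.78 to −0.14), and the difference itself was not tested.

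IMPDH1 and IMPDH2 are isoenzymes of IMP dehydrogenase, the rate-limiting step from IMP toward GMP. IMPDH1 had 11.7, 13.1 and 11.1 normalised CPM in the depleted libraries, against 52.8, 53.9 and 50.4 in the replete libraries. It fell by 2.13 on the log2 scale (SE 0.11, edgeR adjusted p = 1.26e-09) to 22.9% of the replete level, the second steepest fall of the 10. IMPDH2, usually the main form in dividing cells, had 30.8, 37.2 and 28.99 normalised CPM in the depleted libraries, against 102, 94.3 and 90.7 in the replete libraries. It fell by 1.57 (SE 0.11, edgeR adjusted p = 1.75e-08), to 33.8% of the replete level. For both genes all depleted libraries lay below all replete libraries.

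The count ratio of IMPDH1 to IMPDH2 was 0.381, 0.352 and 0.382 in the depleted libraries and 0.518, 0.572 and 0.556 in the replete libraries. Its log2 value averaged −1.43 ± 0.07 in depleted and −0.87 ± 0.07 in replete cells (SD, n = 3 each), a difference of −0.56. All 3 depleted ratios lay below all 3 replete ratios (two-sided exact permutation p = 0.1, the smallest that 3 against 3 libraries can give). By name, GENCODE 29 holds 7 pseudogenes of IMPDH1, 7 of PAICS, 3 of HPRT1 and 2 of PRPS1, and 0 of these are among the counted symbols. How reads shared with them were counted is not given in the sources used here.

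**Figure D3:**
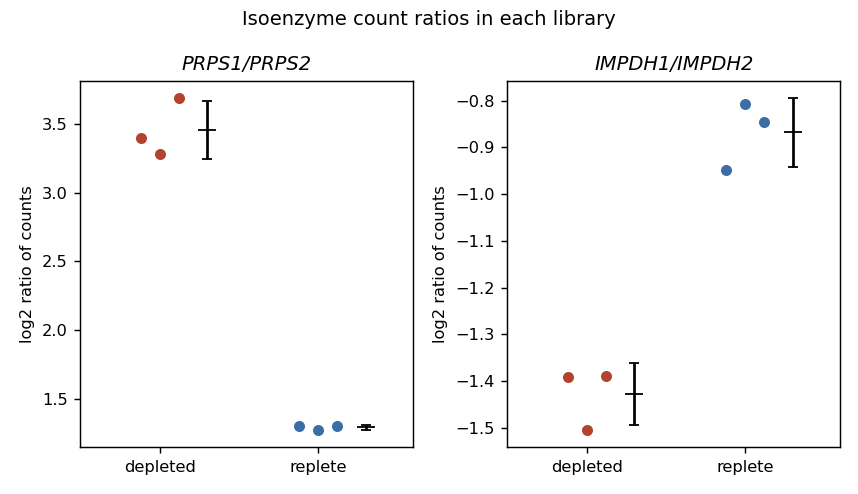
Log2 ratio of the counts of PRPS1 to PRPS2 (left panel) and of IMPDH1 to IMPDH2 (right panel) in each depleted (red) and replete (blue) library, with the mean and SD; the y axes do not start at 0. The PRPS1 to PRPS2 ratio is higher in all 3 depleted libraries (difference 2.16) and the IMPDH1 to IMPDH2 ratio is lower (difference −0.56).

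ADSS, the adenylosuccinate synthase that commits IMP to AMP, had 42.8, 31.6 and 45.4 normalised CPM in the depleted libraries, against 82.1, 75.8 and 77.3 in the replete libraries. It fell by 0.97 on the log2 scale (SE 0.12, edgeR adjusted p = 6.87e-06), with the lowest value in depleted replicate 2. Depleted cells thus kept 51.0% of the replete level of ADSS and 27.8% of that of ADSL in the AMP branch, and 22.9% and 33.8% of those of IMPDH1 and IMPDH2 toward GMP.

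HPRT1 returns hypoxanthine and guanine to the nucleotide pool and is often used as a reference gene in expression studies. It had 27.02, 21.99 and 22.3 normalised CPM in the depleted libraries, against 78.7, 77.6 and 81.0 in the replete libraries. Its log2 fold change was −1.73 (SE 0.10, edgeR adjusted p = 4.98e-09), leaving 30.2% of the replete level, and 12.3% of all genes tested had a lower log2 fold change. APRT, the matching salvage enzyme for adenine, had 49.8, 68.7 and 56.6 normalised CPM in the depleted libraries and 46.1, 48.2 and 52.6 in the replete libraries. Its groups overlapped, and its log2 fold change was 0.25 (edgeR adjusted p = 0.0649). APRT passed, as higher, without depleted replicate 1 (log2 fold change 0.36, adjusted p = 0.00807), without a count filter (0.24, adjusted p = 0.0433) and after adjusting for GC content and transcript length (0.56, adjusted p = 8.81e-05). With library totals alone its log2 fold change was 0.024 (adjusted p = 0.852). The adjusted p of APRT reached 1 over its alternatives, in the test against a change of 1.5-fold.

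Relative to the mean, the spread between libraries was wider in depleted than in replete cells for each of the 10 genes. This was not particular to them. Over genes at large, the chi-square per degree of freedom was 3.92, 11.7 and 19.4 for depleted pairs and 1.51 to 2.03 for replete pairs. The share of all genes with a wider spread in depleted cells was not computed. The coefficient of variation of normalised CPM ran from 7.41% to 20.9% over the members in depleted cells and from 0.561% to 5.98% in replete cells. Counting error alone would give 2.99% to 11.4% in depleted and 2.69% to 4.65% in replete cells, at 55 to 1541 counts per member and library.

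Other genes of purine metabolism changed in both directions, in shares near those of all genes. Of 35 listed partner genes, 28 passed the count filter, and 10 of these rose, 13 fell and 5 did not pass, where 39.1% of all genes tested rose and 39.4% fell. Their median log2 fold change was −0.23, against −0.02 for all genes tested. The counts in the groups of 5 to 11 partner genes that follow are descriptions to be read against the same shares. Among 6 tested de novo partners, 5 fell and 1 rose. PRPSAP1 and PRPSAP2, which bind PRPP synthetase and restrain it, went opposite ways with TMM factors, although PRPSAP2 did not pass with library totals alone or upper quartile factors. PRPSAP1 fell to 10.6 ± 0.949 normalised CPM in depleted cells, against 29.4 ± 3.65 in replete cells (log2 fold change −1.47, edgeR adjusted p = 4.57e-07). PRPSAP2 rose to 53.2 ± 6.09 in depleted cells, against 40.0 ± 2.21 in replete cells (0.41, edgeR adjusted p = 0.00268). With library totals alone its log2 fold change was 0.19 (adjusted p = 0.123) and with upper quartile factors 0.20 (adjusted p = 0.0847), with 6.11e-06 to 0.98 over its alternatives. The 0.98 is from the test against a change of 1.5-fold. MTHFD1, which makes the formyl folate used by GART and ATIC, had a log2 fold change of −0.89 between depleted and replete cells (edgeR adjusted p = 5.46e-07).

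Among 6 salvage genes and nucleoside kinases, 1 rose, 2 fell and 3 did not pass. DGUOK, the mitochondrial deoxyguanosine kinase, rose to 333 ± 32.0 normalised CPM in depleted cells, against 167 ± 10.1 in replete cells (log2 fold change 0.99, edgeR adjusted p = 1.51e-07). Its last 1000 bases overlap the exons of DGUOK-AS1 on the other strand, and no source used here says that strand was used in counting. Exons of MTHFD1, PRPSAP1, ADA, AK6 and AMPD2 likewise overlap those of another counted gene, but not within the last 1000 bases. ADK, which phosphorylates adenosine, fell to 23.2 ± 1.93 in depleted cells, against 43.6 ± 1.43 in replete cells (−0.91, edgeR adjusted p = 2.61e-06). ADA, adenosine deaminase, was at 0.796 ± 0.348 normalised CPM in depleted cells, against 6.93 ± 0.537 in replete cells (−3.15, edgeR adjusted p = 5.68e-07). This rests on 4, 8 and 8 counts in the depleted libraries and 63, 64 and 56 in the replete libraries.

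Of 11 tested interconversion genes, 6 rose, 4 fell and 1 did not pass. GUK1, the guanylate kinase, rose to 185 ± 11.8 normalised CPM in depleted cells, against 111 ± 0.935 in replete cells (log2 fold change 0.74, edgeR adjusted p = 1.02e-06). AK6, a nuclear adenylate kinase, rose by a log2 change of 1.11 (edgeR adjusted p = 4.05e-07), although its exons overlap those of TAF9 on the same strand and may share reads with it. AK3 and AK4, both adenylate kinase family members of the mitochondrial matrix, fell, with AK4 at 10.1 ± 0.277 in depleted and 40.5 ± 2.53 in replete cells (−1.99, edgeR adjusted p = 3.81e-09) and AK3 at 16.2 ± 2.53 in depleted and 44.2 ± 3.82 in replete cells (−1.45, edgeR adjusted p = 2.61e-07). AMPD2, an AMP deaminase that returns AMP to IMP, fell by 1.59 (edgeR adjusted p = 6.44e-07).

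Of 5 tested breakdown genes, 2 rose, 2 fell and 1 did not pass. The cytosolic nucleotidase NT5C2, which prefers IMP and GMP, rose by a log2 change of 0.70 (edgeR adjusted p = 1.29e-05), and the nucleotidase NT5C rose by 0.51 (edgeR adjusted p = 0.00147). For both, the last 1000 bases overlap exons of the opposite strand (CNNM2 for NT5C2 and ARMC7 for NT5C). Neither passed against a change of 1.5-fold (glmTreat adjusted p = 0.0731 for NT5C2 and 0.643 for NT5C). NT5E, the surface nucleotidase CD73, fell by 0.95 (edgeR adjusted p = 3.14e-06), and NT5C3A, which mainly cleaves pyrimidine nucleotides, fell by 0.85 (edgeR adjusted p = 4.64e-05). The 7 partner genes that could not be tested were PRPS1L1, ADSSL1, NME2, AMPD1, GMPR, NT5C1A and XDH. For NME2, the last 1000 bases overlap exons of the separately counted NME1-NME2 on the same strand. Its low count therefore does not show that the transcript was absent.

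**Figure D4:**
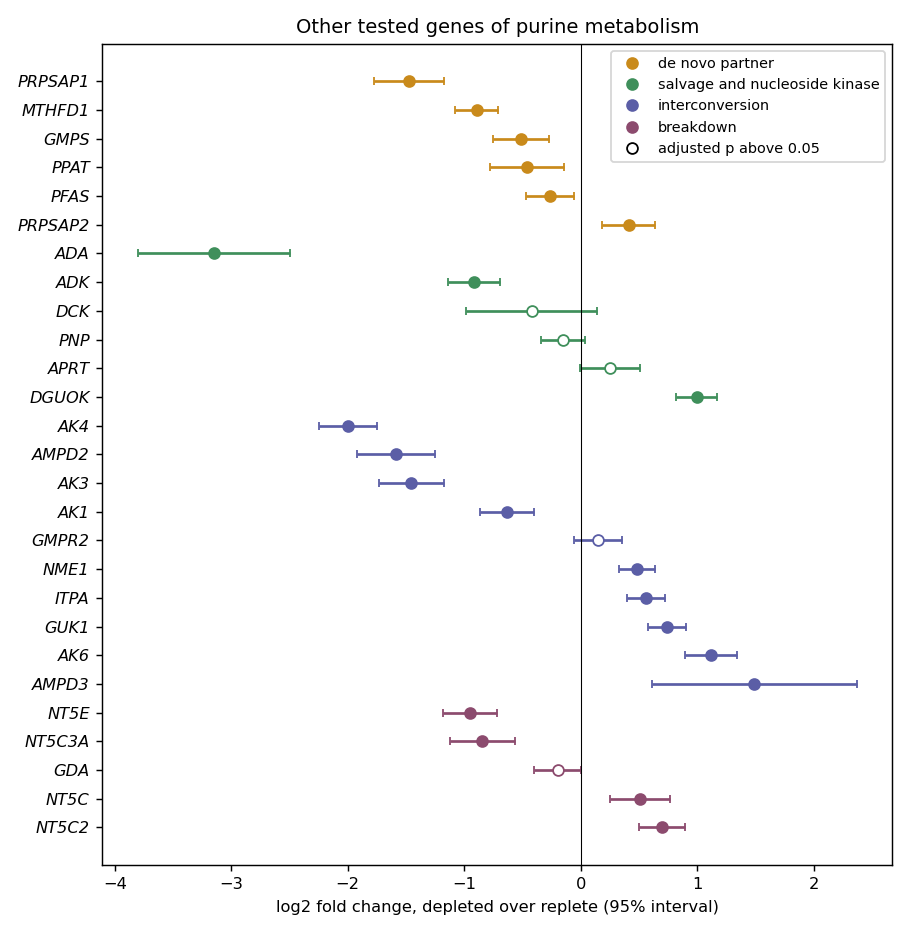
Log2 fold change, depleted over replete, with its 95% interval (x axis) for 27 of the tested partner genes, grouped by colour into de novo partners, salvage and nucleoside kinases, interconversion and breakdown; open symbols did not pass an adjusted p of 0.05. Of the 27 genes, 9 rose and 13 fell, and 4 of the 5 de novo partners that fell lie above −1.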

How the data were processed

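RNA of 6 H460 libraries was measured after Lexogen QuantSeq 3′ library preparation from 500 ng of total RNA, per the labels' protocols. Each file deposited by the authors holds the raw counts of 1 library by gene symbol. Bowtie2, edgeR and the build hg19 appear in the submitters' processing notes, with no role or version. How reads were assigned to genes (program, strand, annotation) is not given in the sources used here. Each file held 25737 entries for 24462 symbols, and counts of the 286 symbols on several entries were summed (none of the members was among them).

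Genes passing edgeR's filterByExpr (minimum count 10, minimum total 15) were scaled by TMM factors (0.917 to 0.929 in depleted, 1.08 to 1.09 in replete libraries) and compared in edgeR 4.0.16 (R 4.3.3) by its quasi-likelihood test with robust dispersions, two-sided, with Benjamini-Hochberg adjustment over all genes tested and a threshold of 0.05. Intervals of 95% use the test's degrees of freedom. Isoenzyme count ratios were compared by exact permutation of the libraries. With 3 counts as the limit for a count of 0, the floor was 0.275 to 0.397 CPM per library. Counting limits cover counting error only. The test was also run on simulated counts with few changed genes, balanced up and down, and the same dispersion for every gene. In these data 78.6% of genes tested were called, so that run does not show how the test behaves here.

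Alternatives were DESeq2 size factors, library totals, upper quartile factors, 2 other count filters, the largest entry per symbol, a replicate block, DESeq2 1.42.0, limma-voom (limma 3.58.1), glmTreat against 1.5-fold and leaving out each library. Removing a loess trend (span 0.5) over GENCODE 29 transcript GC content and length was added after seeing the data. Partner genes named with values are PPAT, PFAS, GMPS, APRT and up to 3 called genes with the smallest p per direction in each of the 4 groups; 1 gene that the rule takes is counted but not reported here. The members and gene lists were chosen with earlier results of these data known. Promoter sequences are RefSeq's (GRCh38.p14), which differs in build from the counted data, so no promoter coordinates are combined with the counts. Exon overlaps, transcript GC content and length are from GENCODE 29 and were joined to the counts by gene symbol. They may differ from the annotation used in counting.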

Additional observations from a re-analysis of the deposited data

How the results depend on the processing

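Over 17 alternatives, 0 of the 10 members were called higher in any, and 8 to 10 were called lower (9 to 10 with each library left out). The fold changes of 8 members kept their direction and their call in all alternatives. The median log2 fold change of all genes was −0.25 with library totals alone, where it was −0.02 with TMM factors, and ATIC then passed as lower at −0.30 (adjusted p = 0.0255), as it did with upper quartile factors at −0.28 (adjusted p = 0.0468). All 10 members were then lower, where 46.5% and 46.0% of all genes were. With each library left out, the log2 fold change of ATIC lay between −0.24 and 0.015. Against a change of 1.5-fold, PRPS1 did not pass at its log2 fold change of −0.48, 8 members were lower where 27.1% of all genes were, 3324 of all genes rose, and 4 partner genes rose. For the isoenzyme ratios, each library was left out in turn, or 0.5 was added to each count. The log2 difference then lay between 2.04 and 2.25 for PRPS1 to PRPS2 and between −0.60 and −0.52 for IMPDH1 to IMPDH2. Taking the largest entry per symbol cannot change these ratios, as no member has several entries, so it is no check of them. Among 473 partner fold changes under alternatives, 435 kept their call, 19 lost it and 19 gained it, and 0 called directions reversed. GMPR2, which was not called at 0.15, had a log2 fold change of −0.08 with library totals alone and −0.06 with upper quartile factors. The cause of these shifts was not tested.

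The libraries share only replicate numbers: deviations from the group means of same-numbered libraries correlated at 0.13, 0.01 and 0.03, and not every library correlated best with its own number. With the replicate block, 9 members were lower, 10 partner genes rose and 14 fell (GDA passed at −0.20, adjusted p = 0.0397), and 4941 of all genes rose and 4999 fell. The ratio differences of 2.16 and −0.56 cannot change under the block in this balanced design, so it is no check of them.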

Other observations

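Depleted replicate 2 differed from the other depleted libraries in both directions within the 10 enzymes. It lay above the mean of depleted replicates 1 and 3 for 6 members and below it for 4. This library also stood apart over genes at large, and the same split over all genes was not computed. These counts therefore only describe the members. The log2 difference was 0.47 for ATIC, 0.42 for PRPS2 and 0.32 for IMPDH2, and −0.48 for ADSS, −0.29 for PAICS, −0.18 for GART and −0.16 for HPRT1. Of the partner genes, DCK, the deoxycytidine kinase that also accepts purine deoxynucleosides, had 4.37 normalised CPM in depleted replicate 2, against 10.2 and 9.33 in depleted replicates 1 and 3, a log2 difference of −1.16. These values rest on 35 counts in depleted replicate 2, against 103 and 75 in depleted replicates 1 and 3. Some DCK exons overlap those of MOB1B on the same strand, but not within the last 1000 bases. DCK was chosen after its values were seen.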
